A study of Homo sapiens with 12 samples.

Results

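The NF-kB factors and feedback genes described here are 10 genes of RKO cells, chosen by symbol from the 26364 genes in the files. They are the subunit genes NFKB1, NFKB2, REL and RELB, the inhibitor genes NFKBIA and NFKBIE, the feedback regulators TNFAIP3 and BIRC3, and the chemokine genes CXCL1 and CXCL2. Of these, 8 had enough counts to be tested, among 12858 tested genes in all, and CXCL1 and CXCL2 did not. RKO is an established human colon carcinoma line, and polyadenylated RNA was sequenced from 12 libraries in 6 groups of 2. The alpha and beta groups overexpressed PRDM1 in its alpha or its beta form, a zinc finger repressor known best from plasma cell differentiation, and the GFP group overexpressed green fluorescent protein. The KO2 and KO5 groups are PRDM1 knockout derivatives, and the WT group is wild type for PRDM1. All groups share the RKO background and the same culture conditions, with no cytokine stimulus named in the labels. The labels do not give the promoter of the transgenes, and do not say whether KO2 and KO5 are each 1 clone, nor if replicate libraries stem from separate cultures. All p-values below reflect the spread between these libraries only, which may be technical.

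NF-kB is a family of dimeric transcription factors that inhibitory IkB proteins hold in the cytoplasm until a stimulus leads to the inhibitor's degradation. In the canonical route an IkB kinase complex targets the inhibitor encoded by NFKBIA and frees dimers that contain RELA, and among their targets are the inhibitor's own gene, the ubiquitin-editing enzyme gene TNFAIP3, BIRC3 and chemokine genes such as CXCL1 and CXCL2, so that several targets feed back on the pathway. In the alternative route the kinase NIK, encoded by MAP3K14, drives processing of the NFKB2 product, which then pairs with RELB, while the ubiquitin ligases encoded by BIRC2 and BIRC3 keep NIK low in unstimulated cells.

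Gene counts per library ranged from 19058967 to 55961821. PRDM1 had 11475 and 9681 counts with alpha, 22395 and 28423 with beta, and 2 and 6 with GFP. It had 0 and 1 counts in KO2, 1 and 1 in KO5 and 4 and 4 in WT, so that its RNA separates the overexpressing groups but, being close to 0 in WT, does not check the knockouts. Of 8 colon epithelial markers, 3 passed the filter on low counts, namely KRT8, KRT18 and CDX2, while EPCAM had 0 counts and CDH1 at most 1 in any library. Of 7 leukocyte markers only CD68 passed, and PTPRC had at most 1 count in any library and CD3E 0. Because of CD68, the summed level of that list differed between groups, at 26.8 to 29.7 counts per 1000000 gene counts (CPM) with alpha, 24.3 to 26.6 with beta and 18.3 to 19.7 with GFP, and at 11.3 to 13.0 in KO2, 12.2 to 12.9 in KO5 and 18.0 to 19.1 in WT. Of 7 fibroblast markers 3 passed, and of 4 endothelial markers 0. The fibroblast list summed to 15.4 to 16.1 CPM with alpha, 12.3 to 13.8 with beta and 9.36 to 9.77 with GFP. It summed to 8.52 to 9.10 CPM in KO2, 13.0 to 13.2 in KO5 and 10.2 to 12.1 in WT. The part of the leukocyte and fibroblast lists in the results below was not tested. In bulk RNA, fewer cells that express a gene and less RNA per cell cannot be told apart.

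The upstream sequence of the members is shown first, because all 8 genes with an entry in the RefSeq promoter table (GRCh38.p14) carry the NF-kB binding consensus, whether or not their RNA was present in RKO cells. The 250 bases before each annotated start were searched on both strands for the kappaB consensus, with overlapping matches counted once. A match was found in 9 of the members' 11 windows, and 10.0% of all 35116 windows in the table hold one. The stretches below cover the members the results turn on, each read along the gene's strand, with the matches in capitals. They lie at chr11:102317275-102317368 (+ strand) for BIRC3, chr14:35404801-35404850 (- strand) for NFKBIA, chr6:137867172-137867233 (+ strand) for TNFAIP3, chr4:73869294-73869344 (+ strand) for CXCL1 and chr4:74099243-74099293 (- strand) for CXCL2.
BIRC3: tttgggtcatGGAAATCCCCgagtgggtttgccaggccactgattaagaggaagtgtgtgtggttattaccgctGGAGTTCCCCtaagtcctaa
NFKBIA: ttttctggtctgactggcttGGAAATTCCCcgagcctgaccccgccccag
TNFAIP3: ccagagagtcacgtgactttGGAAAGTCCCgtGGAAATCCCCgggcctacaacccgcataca
CXCL1: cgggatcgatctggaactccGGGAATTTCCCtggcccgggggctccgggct
CXCL2: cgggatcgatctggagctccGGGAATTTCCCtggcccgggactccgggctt
The 2 matches of BIRC3 begin 199 and 135 bases before the start, and the first has the same 10 letters, GGAAATCCCC, as the second match of TNFAIP3. The match of NFKBIA begins 81 bases before the start and those of CXCL1 and CXCL2 begin 79 and 78 bases before it, the last pair with identical letters. NFKB1 and REL hold 1 match each and NFKB2 holds 4 over its 3 annotated starts; RELB and NFKBIE are not shown. The letters GAAAGTG, part of the sequence PRDM1 is known to bind, were in 0 of the 11 windows and in 3.9% of all windows, and their first 5 letters, GAAAG, were in 8 of the 11 and in 48.9% of all. A match is a description of the letters and not evidence of binding.

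Set against transcript length, NFKB2 and NFKBIA were the most abundant members in WT cells, and the chemokines were at or close to 0. Levels between genes are given as CPM per kilobase of the longest annotated transcript, the only scale on which genes are set side by side here. In WT they were 24.9 ± 0.619 for NFKB2, 21.9 ± 0.597 for NFKBIA, 14.9 ± 0.605 for NFKB1, 8.49 ± 0.154 for NFKBIE and 6.28 ± 0.397 for RELB (SD, n = 2). TNFAIP3 followed with 2.17 ± 0.0178, REL with 1.41 ± 0.0457 and BIRC3 with 1.21 ± 0.150 (SD, n = 2), and the last pair differed by about the spread between libraries. The order from NFKB2 down to RELB was the same in alpha, beta, GFP, KO2 and WT. In KO5 NFKBIA came first with 20.2 ± 0.718, then NFKB1 with 18.9 ± 0.457 and NFKB2 with 17.5 ± 0.492 (SD, n = 2).

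CXCL1, which encodes a neutrophil-attracting chemokine, had 0 counts in every library, which allows up to 0.0536 CPM in the deepest (WT replicate 2) and 0.157 CPM in the shallowest (beta replicate 1), taking 3 counts as the floor. CXCL2, its close paralog, had 2 counts in GFP replicate 1, 1 count in WT replicate 2 and 0 in the other 10 libraries. Expression of either was not detectable at this depth in any group. Several other chemokine and cytokine genes were also at or near 0, but not all. IL32 stood at group means of 145 to 183 CPM, LIF at 11.5 to 26.8, CSF1 at 9.27 to 22.2 and IL11 at 4.90 to 11.4. TNF and IL6 had 0 counts throughout. CXCL3 had 7 and 5 counts in KO2, above the floor in both libraries (0.161 and 0.143 CPM), and 0 to 4 in the other libraries. Among the latter, alpha replicate 2 had 0.197 CPM, more than either KO2 library. GFP replicate 1 had 0.156 CPM and WT replicate 2 had 0.0706 CPM, and all of these were also above the floor. CXCL8 had 0 to 4 counts in every library. Other known NF-kB targets were present, with ICAM1 at group means of 74.5 to 94.8 CPM and SOD2 at 83.4 to 89.6 CPM. RELA, the subunit of the canonical dimers, stood at 74.5 to 81.5 CPM over the 6 group means and passed in none of the 8 comparisons. Reads that CXCL1, CXCL2 and CXCL3 share could have been assigned to any of them or to none.

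**Figure D1:**
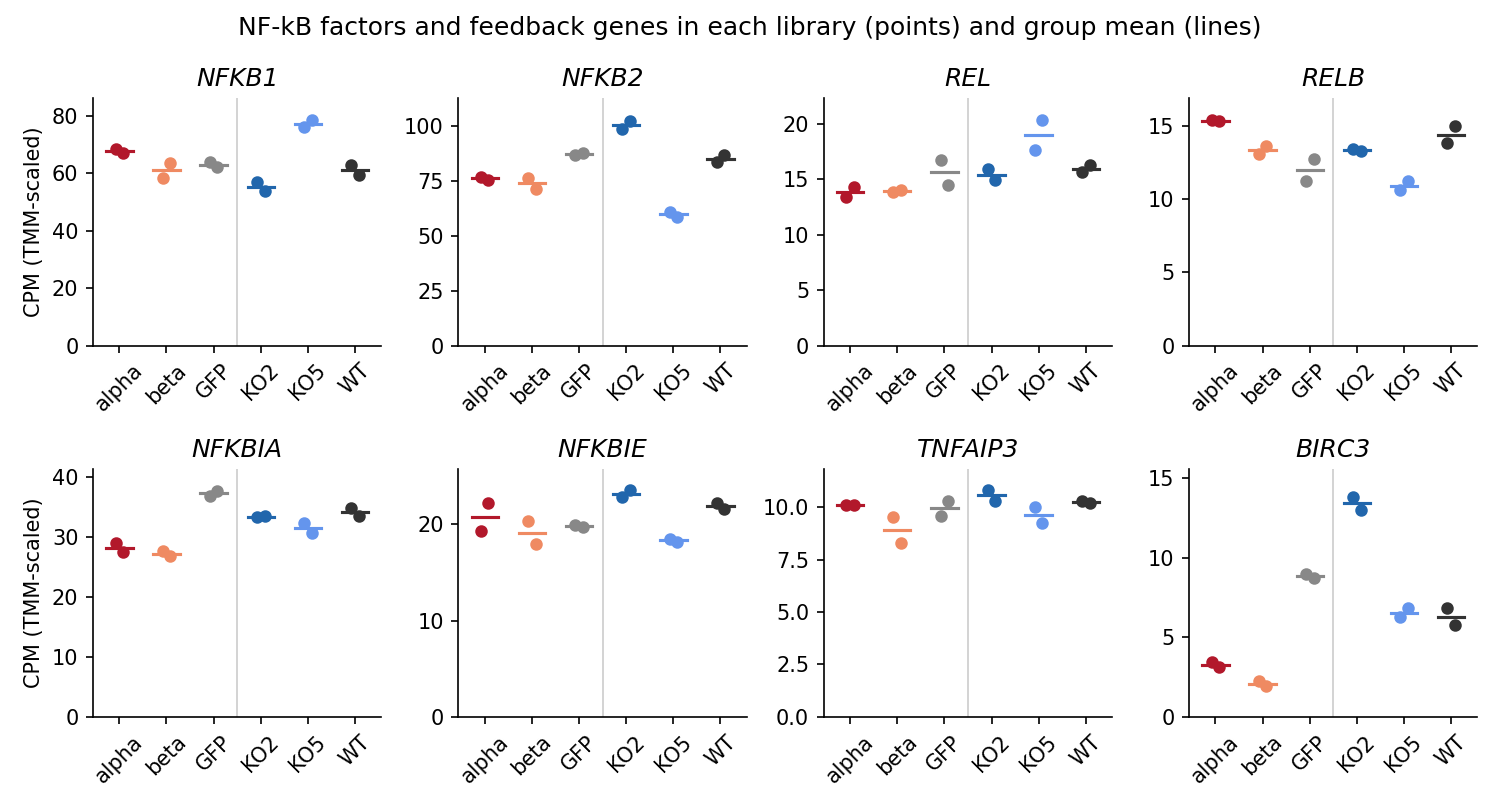
Normalised level (CPM, linear axis from 0) of the 8 tested members in every library, with 2 points per group and a line at the group mean; alpha, beta and GFP stand left of KO2, KO5 and WT. BIRC3 is lowest in the alpha and beta libraries (1.94 to 3.44 CPM) and highest in KO2 (13.0 and 13.8 CPM), NFKB2 is lowest in KO5 (58.5 and 60.9 CPM), and TNFAIP3 stays between 8.29 and 10.8 CPM.

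With the alpha form of PRDM1, BIRC3, NFKBIA and NFKB2 fell relative to GFP cells and RELB rose. BIRC3 changed most, by 2.70-fold, and the other changes were 1.32-fold or less. These 4 calls among the 8 tested members compare with 37.5% of all tested genes called. The median log2 fold change was -0.07 over the members and 0.01 over all tested genes. Genes were called at an adjusted p under 0.05 by edgeR's quasi-likelihood test with the Benjamini-Hochberg adjustment over all tested genes.

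BIRC3 encodes an inhibitor of apoptosis protein that acts as a ubiquitin ligase in TNF receptor signalling. It had 81 and 63 counts with alpha (3.44 and 3.11 CPM), against 231 and 242 counts with GFP (9.00 and 8.75 CPM). The alpha libraries lay below both GFP libraries and also below both WT libraries (6.85 and 5.75 CPM). The difference from GFP was -1.43 ± 0.15 on the log2 scale, a level 2.70-fold lower with alpha (SE; edgeR adjusted p = 2.92e-12). It was the only member that passed a test for changes beyond 1.5-fold (glmTreat), which 2.80% of all tested genes passed.

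NFKBIA, the gene of the main IkB inhibitor, had 29.0 and 27.5 CPM with alpha, against 36.9 and 37.7 CPM with GFP. Both alpha libraries were below both GFP libraries, and the gene fell by 0.40 ± 0.06 (edgeR adjusted p = 2.06e-07), or 1.32-fold. NFKB2, whose product is processed in the alternative route, had 76.8 and 75.2 CPM with alpha, against 86.5 and 87.6 CPM with GFP, a fall of 0.20 ± 0.04 (edgeR adjusted p = 0.000243). RELB, the partner of the processed NFKB2 product, went the other way, with 15.4 and 15.3 CPM with alpha, against 11.2 and 12.7 CPM with GFP, a rise of 0.36 ± 0.09 (edgeR adjusted p = 0.000736). The WT libraries had 13.8 and 15.0 CPM, closer to alpha, and GFP was itself lower than WT by 0.28 ± 0.08. With the trend of fold changes with transcript GC content removed, the rise of RELB over GFP was 0.22 (edgeR adjusted p = 0.0356). In the main fit of alpha against GFP, NFKB1, REL, NFKBIE and TNFAIP3 did not pass, with log2 differences between -0.17 and 0.11. For REL, which encodes the c-Rel subunit, the difference of -0.17 ± 0.09 became -0.27 without GFP replicate 2 (edgeR adjusted p = 0.0413).

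The beta form gave falls of BIRC3, NFKBIA and NFKB2 relative to the same GFP libraries that alpha was set against, so the comparisons share their controls. These were 3 falls among the 8 tested members, while 40.9% of all tested genes were called. The other 5 members did not pass, and a rise was called for 0 of them, also at an unadjusted p under 0.05 and by DESeq2. The median log2 fold change was -0.16 over the members and 0.01 over all tested genes. BIRC3 had 43 and 47 counts with beta (2.25 and 1.94 CPM), against 9.00 and 8.75 CPM with GFP. Both beta libraries lay below both GFP libraries, and the difference was -2.09 ± 0.17, or 4.26-fold lower with beta (edgeR adjusted p = 4.48e-16). It was again the only member past the 1.5-fold test, which 2.75% of all tested genes passed.

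NFKBIA had 27.6 and 26.8 CPM with beta, against 36.9 and 37.7 CPM with GFP, a fall of 0.46 ± 0.06 (edgeR adjusted p = 9.97e-09). NFKB2 had 76.4 and 71.2 CPM with beta, against 86.5 and 87.6 CPM with GFP, a fall of 0.24 ± 0.05 (edgeR adjusted p = 9.58e-06). Neither gene overlapped between the groups. RELB had 13.1 and 13.6 CPM with beta, against 11.2 and 12.7 CPM with GFP, a difference of 0.17 ± 0.09 that did not pass (edgeR adjusted p = 0.137). REL differed by -0.16 ± 0.09 and by -0.26 without GFP replicate 2 (edgeR adjusted p = 0.043).

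Between the alpha and beta groups, BIRC3 was the member that differed. PRDM1 RNA itself stood at 482 CPM with alpha and 1173 CPM with beta. The form and the level of PRDM1 therefore cannot be told apart in this comparison. BIRC3 stood at 3.27 ± 0.233 CPM with alpha and 2.10 ± 0.223 CPM with beta (SD, n = 2 each), a difference of 0.66 ± 0.20 (edgeR adjusted p = 0.031), while 6.24% of all tested genes were called. The alpha libraries were both above the beta libraries, at 144 counts with alpha and 90 with beta in all. The call was lost by DESeq2's Wald test (adjusted p = 0.0925) and without alpha replicate 1 (0.58, adjusted p = 0.22), alpha replicate 2 (0.72, 0.0735), beta replicate 1 (0.76, 0.0652) or beta replicate 2 (0.54, 0.302) by edgeR. The other 7 members did not pass in the full fit. Their log2 differences lay between -0.01 and 0.20, and a fall with alpha was called for 0 of them, also at an unadjusted p under 0.05 and by DESeq2. For NFKB1 the difference of 0.15 ± 0.05 became 0.22 without beta replicate 2.

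In KO2 cells BIRC3 and NFKB2 rose relative to WT and NFKB1 fell. These were 3 calls among the 8 tested members, while 30.0% of all tested genes were called, and the median log2 fold change was 0.01 over the members and -0.00 over all tested genes. BIRC3 had 599 and 454 counts in KO2 (13.8 and 13.0 CPM), against 252 and 326 counts in WT (6.85 and 5.75 CPM). Both KO2 libraries were above every other library of the series, and the difference from WT was 1.11 ± 0.09, or 2.16-fold higher in KO2 (edgeR adjusted p = 1.12e-14). BIRC3 was the member past the 1.5-fold test here too, which 1.37% of all tested genes passed.

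NFKB2 had 98.6 and 102 CPM in KO2, against 83.5 and 86.5 CPM in WT. The groups did not overlap, and the rise was 0.24 ± 0.04 (edgeR adjusted p = 1.3e-06). NFKB1, which encodes the precursor of the common DNA-binding partner of RELA, had 56.8 and 53.8 CPM in KO2, against 62.7 and 59.2 CPM in WT, a fall of 0.13 ± 0.04 (edgeR adjusted p = 0.0124). That call was lost by DESeq2's Wald test (adjusted p = 0.0794), without WT replicate 1 (-0.10, edgeR adjusted p = 0.158) and without KO2 replicate 2 (-0.10, 0.181). NFKBIA stood at 33.4 ± 0.129 CPM in KO2 and 34.2 ± 0.931 CPM in WT (SD, n = 2 each), and its difference of -0.03 ± 0.05 did not pass (edgeR adjusted p = 0.697).

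KO5 cells differed from WT in other members than BIRC3. NFKB1 and REL rose, and NFKB2, RELB and NFKBIE fell, so that 5 of the 8 tested members were called while 51.2% of all tested genes were. The median log2 fold change was -0.10 over the members and -0.00 over all tested genes, and 0 members passed the 1.5-fold test, which 2.18% of all tested genes passed. NFKB2 had 60.9 and 58.5 CPM in KO5, against 83.5 and 86.5 CPM in WT. The KO5 libraries were the lowest of the series for this gene, and the fall was 0.51 ± 0.04, or 1.43-fold (edgeR adjusted p = 8.7e-15).

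NFKB1 had 75.9 and 78.5 CPM in KO5, against 62.7 and 59.2 CPM in WT, a rise of 0.34 ± 0.04 (edgeR adjusted p = 2.65e-09). REL had 17.6 and 20.3 CPM in KO5, against 15.6 and 16.3 CPM in WT, a rise of 0.25 ± 0.07 (edgeR adjusted p = 0.00335). For both genes the KO5 libraries were above the WT libraries, but the call of REL was lost without KO5 replicate 2 (0.14, edgeR adjusted p = 0.2). RELB had 10.6 and 11.2 CPM in KO5, against 13.8 and 15.0 CPM in WT, a fall of 0.41 ± 0.08 (edgeR adjusted p = 1.85e-05). NFKBIE, a further IkB inhibitor gene, had 18.5 and 18.1 CPM in KO5, against 22.2 and 21.6 CPM in WT, a fall of 0.26 ± 0.07 (edgeR adjusted p = 0.000868). BIRC3 had 6.27 and 6.82 CPM in KO5, against 6.85 and 5.75 CPM in WT. Those libraries overlapped, and the difference of 0.07 ± 0.11 did not pass (edgeR adjusted p = 0.582).

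**Figure D2:**
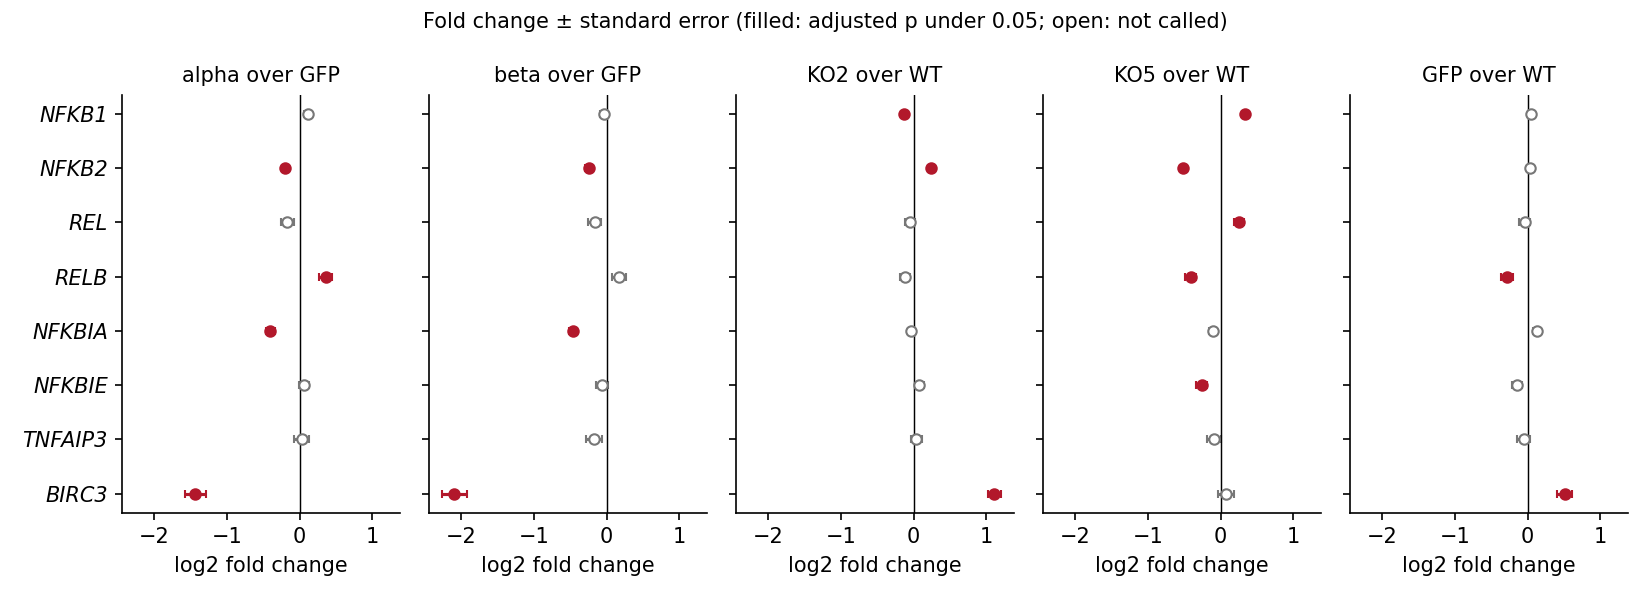
Log2 fold change of the 8 tested members (points) with its standard error (bars) in 5 comparisons, each named group over its control; filled points are called at an adjusted p under 0.05 and open points are not. BIRC3 lies far left with alpha (-1.43) and beta (-2.09) and right in KO2 (1.11), while the other members stay between -0.51 and 0.36.

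In KO5 the fold changes moved with the GC content of the transcripts. Over 12122 genes with a GC value, the Spearman correlation of GC content with the log2 fold change was -0.52 for KO5 against WT and -0.07 for KO2 against WT, given as a description across genes, which are not independent. The members that fell had a GC content of 62.4% (NFKB2), 65.4% (RELB) and 61.0% (NFKBIE), against 50.1% for NFKB1 and 38.7% for REL, which rose. With the trend removed within the fit, NFKB1 stood at 0.35 (edgeR adjusted p = 2.61e-09) and NFKB2 at -0.29 (1.48e-07), and both remained called. REL became 0.11 (adjusted p = 0.196), RELB -0.12 (0.206) and NFKBIE -0.06 (0.48), which left 2 members called. The value of BIRC3 became -0.10 (adjusted p = 0.478).

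**Figure D3:**
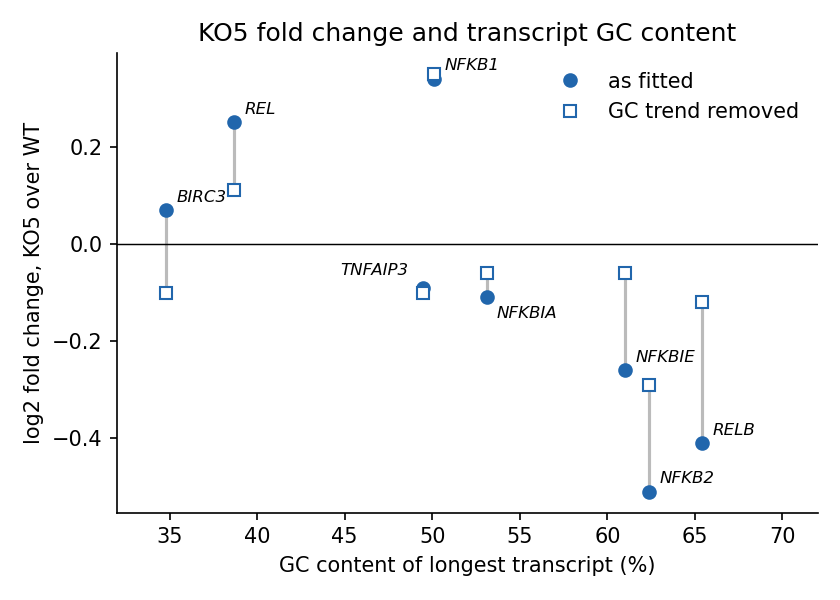
Log2 fold change of KO5 over WT (vertical axis) against the GC content of the longest transcript in percent (horizontal axis) for the 8 tested members, as fitted (circles) and with the GC trend removed (squares). NFKB1 is at 0.34 as fitted and 0.35 without the trend and NFKB2 at -0.51 and -0.29, while RELB and NFKBIE, at 65.4% and 61.0% GC, move to -0.12 and -0.06.

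Set against each other, KO5 and KO2 differed in 6 of the 8 tested members, while 54.9% of all tested genes were called. BIRC3 stood at 6.55 ± 0.392 CPM in KO5 and 13.4 ± 0.578 CPM in KO2, a difference of -1.04 ± 0.10 (edgeR adjusted p = 6.81e-13). NFKB2 stood at 59.7 ± 1.68 CPM in KO5 and 100.5 ± 2.69 CPM in KO2, a difference of -0.75 ± 0.04 (edgeR adjusted p = 6e-21; SD, n = 2 each). The NFKB2 libraries lay on opposite sides of WT, and both genes passed the 1.5-fold test, which 3.43% of all tested genes passed. NFKB1 differed by 0.48 ± 0.04, REL by 0.30 ± 0.07, NFKBIE by -0.34 ± 0.07 and RELB by -0.29 ± 0.08, with edgeR adjusted p of 4e-13, 0.000574, 2.45e-05 and 0.00194 in that order. The Spearman correlation with GC content was -0.42, and with the trend removed RELB no longer passed (-0.05, edgeR adjusted p = 0.605). REL also did not pass without KO5 replicate 2 (0.19, edgeR adjusted p = 0.0734). Beside these, NFKBIA differed by -0.08 ± 0.06 and TNFAIP3 by -0.13 ± 0.09, and neither passed.

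The GFP cells themselves differed from WT in BIRC3 and RELB, 2 of the 8 tested members, while 19.0% of all tested genes were called. BIRC3 had 9.00 and 8.75 CPM with GFP, against 6.85 and 5.75 CPM in WT, a rise of 0.51 ± 0.10 (edgeR adjusted p = 0.000365). RELB had 11.2 and 12.7 CPM with GFP, against 13.8 and 15.0 CPM in WT, a fall of 0.28 ± 0.08 (edgeR adjusted p = 0.00904). The correlation of the fold changes with GC content was -0.67, and with the trend removed BIRC3 stood at 0.38 (edgeR adjusted p = 0.0394), RELB at -0.09 (0.736) and NFKB2 at 0.19 (0.00612), a split of 2 higher and 0 lower in place of 1 and 1. Without WT replicate 2 neither BIRC3 (0.38, edgeR adjusted p = 0.0615) nor RELB (-0.20, 0.22) passed, and RELB did not pass without GFP replicate 1 (-0.20, 0.155).

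Overexpression of either form against both knockouts uses neither GFP nor WT libraries. The mean of alpha and beta was lower than the mean of KO2 and KO5 for BIRC3, NFKBIA and REL and higher for RELB, 4 of the 8 tested members, while 58.8% of all tested genes were called. BIRC3 ranged from 1.94 to 3.44 CPM over the 4 overexpressing libraries and from 6.27 to 13.8 CPM over the 4 knockout libraries, a difference of -1.84 ± 0.11 (edgeR adjusted p = 3.23e-21). It alone passed the 1.5-fold test, which 4.97% of all tested genes passed. NFKBIA ranged from 26.8 to 29.0 CPM with overexpression and from 30.7 to 33.5 CPM in the knockouts, a difference of -0.23 ± 0.04 (edgeR adjusted p = 4.3e-06). REL ranged from 13.4 to 14.3 CPM with overexpression and from 14.9 to 20.3 CPM in the knockouts, a difference of -0.30 ± 0.06 (edgeR adjusted p = 2.41e-05). The libraries of these genes did not overlap, whereas those of RELB did (0.25 ± 0.06, edgeR adjusted p = 0.000383). With the GC trend removed RELB no longer passed (0.12, adjusted p = 0.0724), and NFKB2 (-0.13) and NFKBIE (-0.12) did, a split of 0 higher and 5 lower in place of 1 and 3.

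In the authors' deposited table of alpha against knockout, BIRC3 stood at -0.86 ± 0.20 (their adjusted p = 0.000321), and in the authors' deposited table of beta against knockout at -1.17 ± 0.21 (3.96e-07). Whether those fold changes were shrunken is not stated. NFKBIA was at -0.25 ± 0.08 in the authors' deposited table for beta (adjusted p = 0.0172) and at -0.20 ± 0.08 in that for alpha (0.091). In the authors' deposited tables none of the other 6 members with a value had an adjusted p under 0.1.

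TNFAIP3, which encodes the ubiquitin-editing enzyme that ends TNF and Toll-like receptor signals, was called in 0 of the 8 comparisons. Its lowest unadjusted p was 0.0728, so that 0 comparisons were under 0.05 without adjustment, and DESeq2 called it in 0 of the 7 comparisons where it gave an adjusted p. It had 10.1 and 10.1 CPM with alpha, 9.53 and 8.29 with beta and 9.58 and 10.3 with GFP. It had 10.8 and 10.3 CPM in KO2, 10.0 and 9.25 in KO5 and 10.3 and 10.2 in WT. A gene on the opposite strand overlaps it in the annotation and small genes overlap REL, and whether reads were counted by strand is not stated.

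Beyond the members, a list of 105 other genes of the pathway was read from the same fit, of which 74 were tested. Like the members, the list was chosen with earlier results of these data known. The shares of all tested genes are therefore given as a description, and whether the pathway differs from other genes was not tested. With alpha 20 rose and 18 fell relative to GFP, against 37.5% of all tested genes called. With beta 20 rose and 18 fell, against 40.9% of all tested genes. With the GC trend removed 17 rose and 20 fell with alpha, and 18 rose and 23 fell with beta, so that falls outnumbered rises. In KO2 15 rose and 13 fell relative to WT, or 16 and 13 with the GC trend removed, against 30.0% of all tested genes before its removal. In KO5 16 rose and 29 fell, or 20 and 17 with the GC trend removed, against 51.2% of all tested genes before its removal. The counts by role below are read against these same shares. The medians of the list lay between -0.04 and 0.01 in these comparisons, against -0.00 to 0.01 over all tested genes.

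Among the 20 kinases and adaptors, all tested, MAP3K14 changed most in each of these comparisons. It encodes NIK, the kinase that BIRC2 and BIRC3 hold low. It had 30.3 and 32.6 CPM with alpha and 24.4 and 23.4 with beta, against 79.2 and 72.8 CPM with GFP. The falls were 1.27 ± 0.05 with alpha (edgeR adjusted p = 1.81e-25) and 1.67 ± 0.06 with beta (2.75e-29). In KO2 it had 119 and 118 CPM and in KO5 40.3 and 37.6 CPM, against 81.8 and 80.4 CPM in WT, a rise of 0.55 ± 0.04 in KO2 and a fall of 1.05 ± 0.05 in KO5 (edgeR adjusted p = 1.33e-16 and 1.33e-24 in that order). No library of alpha, beta, KO2 or KO5 overlapped its controls, and GFP and WT differed by -0.09 ± 0.04 (adjusted p = 0.107). NFKB2 was called in the same direction as MAP3K14 in these 4 comparisons, and BIRC3 in all of them but KO5.

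RIPK1, a kinase of the TNF receptor complex, rose with alpha by 0.47 ± 0.06 and with beta by 0.54 ± 0.06. In KO2 it fell by 0.18 ± 0.05. CHUK, a catalytic subunit of the IkB kinase complex, fell by 0.12 ± 0.04 with alpha and 0.11 ± 0.04 with beta, and rose by 0.15 ± 0.04 in KO2 and by 0.28 ± 0.04 in KO5. IRAK4, a kinase of Toll-like receptor signalling, fell by 0.39 ± 0.07 in KO2 and rose by 0.40 ± 0.07 in KO5, and TRAF6, an adaptor of the same route, fell by 0.15 ± 0.05 in KO2 and rose by 0.47 ± 0.05 in KO5.

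BIRC2, the neighbour and paralog of BIRC3 on chromosome 11, rose with alpha and beta, where BIRC3 fell. It had 99.3 and 102 CPM with alpha and 107 and 103 with beta, against 79.9 and 83.5 CPM with GFP, rises of 0.30 ± 0.04 (edgeR adjusted p = 7.71e-08) and 0.36 ± 0.04 (9.69e-10). In KO2 it stood at 73.3 ± 2.12 CPM and in WT at 73.0 ± 3.42 CPM (SD, n = 2 each), with a difference of 0.01 ± 0.04 that did not pass. Of the 12 inhibitors, ligases and deubiquitinases, 3 rose and 2 fell with alpha, or 2 and 3 with the GC trend removed, while 37.5% of all tested genes were called. Among them were CYLD, a deubiquitinase that restrains the pathway, with 0.21 ± 0.05 (0.17 ± 0.05 with beta), and TAX1BP1, an adaptor of TNFAIP3, with -0.36 ± 0.04 (-0.32 ± 0.04 with beta). In KO5 1 rose and 4 fell, or 2 and 2 with the GC trend removed, while 51.2% of all tested genes were called, and TAX1BP1 rose in either fit (0.55 ± 0.03, and 0.52 with the trend removed).

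**Figure D4:**
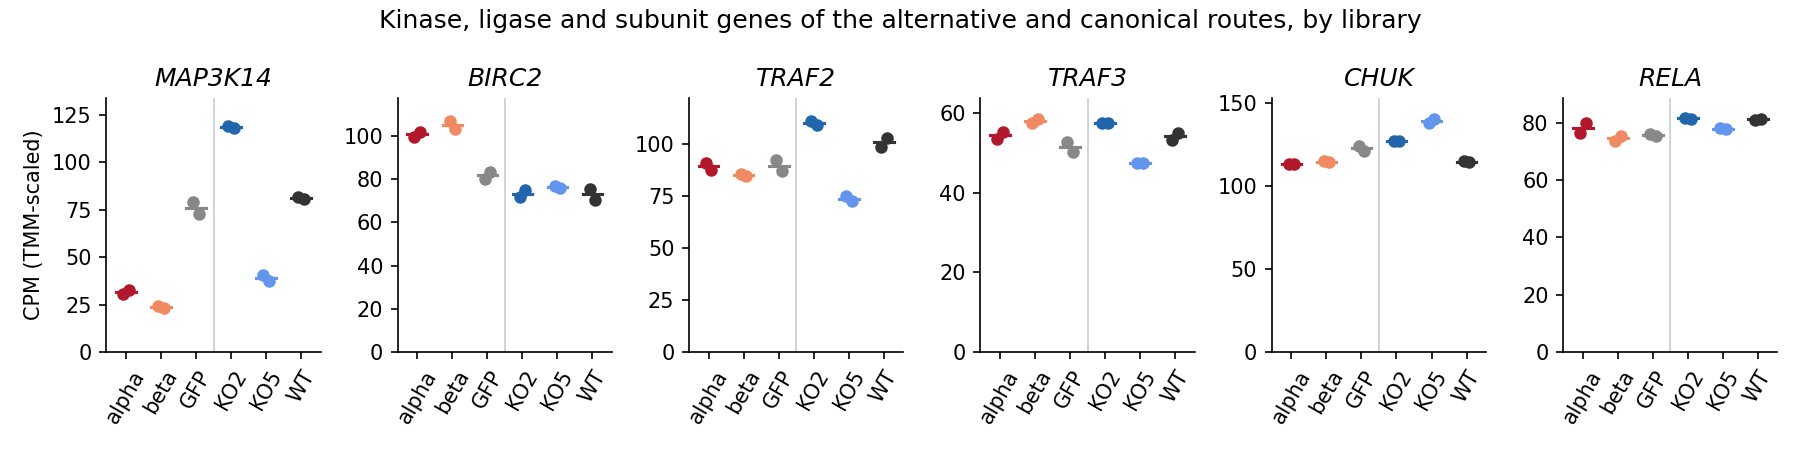
Normalised level (CPM, linear axis from 0) of MAP3K14, BIRC2, TRAF2, TRAF3, CHUK and RELA in every library, with 2 points per group and a line at the group mean; TRAF2 and TRAF3, adaptors of the complex that degrades NIK, were added to the picture after their values were seen. MAP3K14 lies between 23.4 and 40.3 CPM in the alpha, beta and KO5 libraries and between 72.8 and 119 CPM in the others, and RELA between 73.7 and 81.6 CPM throughout.

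Of 9 receptors 7 were tested, and with alpha 4 rose and 2 fell, while 37.5% of all tested genes were called. TNFRSF12A, the receptor of the cytokine TWEAK, rose with alpha (0.38 ± 0.04), with beta (0.44 ± 0.04) and in KO5 (0.31 ± 0.04), and TNFRSF1A, the main TNF receptor, fell with alpha (-0.17 ± 0.05), with beta (-0.30 ± 0.06) and in KO5 (-0.51 ± 0.05). CD40, a receptor of the alternative route, fell by 0.34 ± 0.08 in KO5. Of 25 chemokine and cytokine genes only 6 were tested. CSF1, a macrophage growth factor, had 10.7 and 11.5 CPM with alpha and 8.43 and 10.1 with beta, against 18.9 and 18.3 CPM with GFP, falls of 0.74 ± 0.09 and 0.99 ± 0.09, and rose by 0.20 ± 0.06 in KO2. LIF, a cytokine of the interleukin 6 family, fell by 0.83 ± 0.09 with alpha and by 0.54 ± 0.08 with beta, and rose by 0.30 ± 0.06 in KO5.

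Of the other targets 24 were tested. With alpha 11 rose and 5 fell, while 37.5% of all tested genes were called, and with beta 10 rose and 4 fell, against 40.9%. In KO2 6 rose and 4 fell, against 30.0% of all tested genes. In KO5 2 rose and 10 fell, against 51.2%, or 6 and 6 with the GC trend removed. IER3, an early response gene, had 47.5 and 50.7 CPM with alpha and 56.4 and 55.4 with beta, against 18.8 and 20.9 CPM with GFP, and it fell by 0.39 ± 0.07 in KO5. LAMB3, a laminin chain gene, stood at 51.5 ± 3.78 CPM with alpha and 26.9 ± 2.48 with beta, against 2.97 ± 0.316 CPM with GFP (SD, n = 2 each), and it rose by 1.27 ± 0.11 in KO2 and fell by 1.93 ± 0.23 in KO5. CFLAR, an inhibitor of death receptor signalling, rose by 0.50 ± 0.08 with alpha and by 0.30 ± 0.08 with beta, fell by 0.31 ± 0.07 in KO2 and rose by 0.57 ± 0.06 in KO5.

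BIRC3 was the member whose group means ranged over more than 1 log2 unit, from 2.10 CPM with beta to 13.4 CPM in KO2. The range was 2.42 with a small offset added to the means before the log, which makes it smaller than without one. The genes most like BIRC3 were sought among genes of at least 5 CPM. Over the 6 group means on this log2 scale, TMA7 had a Pearson correlation of 0.998 with BIRC3 and PSMC3IP of 0.995. These genes ranged over 0.29 and 0.20 log2 units, and the points share the same libraries. TMA7 and PSMC3IP had the highest values of all genes searched, over only 6 points. For TNFAIP3, which ranged over 0.23 log2 units, the highest correlation with any such gene was 0.991. A high value was thus also found for a member that varied little, and likeness was not tested.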

How the data were processed

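Polyadenylated RNA of 12 RKO libraries was prepared with a stranded kit, per the labels. The submitters' processing notes name hg19, TopHat, Bowtie2 and Cufflinks; versions, the read counter and its use of strand are not given in the sources used here. The authors deposited counts per gene symbol without normalization (26366 entries per library). The 2 entries that name no gene, which held 9.13% to 10.8% (no gene) and 1.66% to 1.75% (ambiguous) of the reads, stayed out of all steps. Log2 fold changes, p-values and a score (the Wald statistic) stand in comparison tables that the authors made with DESeq2, per the file headers.

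Counts were analysed with edgeR 4.0.16 in R 4.3.3: filterByExpr over the 6 groups, TMM scaling, a robust quasi-likelihood fit (glmQLFit, glmQLFTest) with a mean per group over all 12 libraries, and Benjamini-Hochberg adjustment over 12858 genes at 0.05. CPM are counts per 1000000 gene counts after TMM scaling. For standard errors (Wald) a quasi-likelihood dispersion under 1 was set to 1. The floor of 3 counts covers counting error only. The fit was tested on simulated data. Chi-square per degree of freedom between the libraries of a group was 1.68 to 2.77, so none were treated as duplicates. GC content and length are of the longest GENCODE v29 transcript, for 94.3% of tested genes. Promoters are from RefSeq (GRCh38.p14), a build other than that of the files.

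Named were all 10 members, RELA, CXCL3, CXCL8, BIRC2 and PRDM1, and by role up to 2 rises and 2 falls per main comparison among called genes of the wider list with at least 1 CPM and no overlap; the text gives part of these, and others it names (TNF, IL6, ICAM1, SOD2) were chosen after their values were seen. Members and lists were chosen with earlier results of these data known. Tried as alternatives were the scaling and the Wald test of DESeq2 1.42.0, all genes without a filter, only the compared groups, a replicate block, removal of the GC trend, a test beyond 1.5-fold and leaving out each library.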

Additional observations from a re-analysis of the deposited data

Results flagged for a closer look

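BIRC3 differed between the alpha and beta groups by 0.66 on the log2 scale by edgeR's quasi-likelihood test (adjusted p = 0.031). It was higher in both alpha libraries than in either beta library. The difference was 0.54 to 0.76 when any of the 4 libraries was left out, and the call was then lost. PRDM1 RNA stood at 482 CPM with alpha and 1173 CPM with beta, so its form and its level cannot be told apart here.

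The effect of the knockout differed between KO5 and KO2 for 6 members by the same test, with KO5 minus KO2 values of 0.48 for NFKB1, -0.75 for NFKB2, 0.30 for REL, -0.29 for RELB, -0.34 for NFKBIE and -1.04 for BIRC3. Both KO5 libraries lay on the same side of both KO2 libraries for all 6. The same held for NFKBIA and TNFAIP3, which were not called, so this does not set the 6 apart. How many of all tested genes were separated in this way is not given here, and 54.9% of them were called. The difference of RELB was no longer called with the GC trend removed, and that of REL without KO5 replicate 2.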

How the results depend on the processing

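Over the alternatives, 797 log2 fold changes of members were recomputed. Of these, 719 kept their direction and their side of the threshold, 47 lost a call, 11 gained one and 20 changed sign. Of the 28 called values, 0 changed sign. DESeq2 gave no adjusted p for BIRC3, RELB and TNFAIP3 in GFP against WT. Expression of CXCL1 and CXCL2 is limited by depth, and 2 libraries a group limit every comparison. The cause of the changes below was not tested.

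The test beyond 1.5-fold leaves fewer calls by its construction. With it 1, 1, 0, 1, 0, 2, 0 and 1 members passed in alpha-GFP, beta-GFP, alpha-beta, KO2-WT, KO5-WT, KO5-KO2, GFP-WT and overexpression against knockout, in that order. Of the wider list 6, 5, 1, 1, 3, 5, 0 and 8 genes passed, and of all tested genes 360, 353, 59, 176, 280, 441, 0 and 639. By DESeq2's Wald test alpha-beta had 0 members, 4 listed genes and 426 genes in all. KO2-WT had 16 listed and 2368 in all, against 28 and 3857 by edgeR, and GFP-WT had 0 members, 10 listed and 1443 in all, against 2, 21 and 2444. The 2 members edgeR called in GFP-WT, BIRC3 and RELB, had no adjusted p from DESeq2. The 0 there covers only the 5 of 8 tested members that had one. Without the low-count filter 2 members were called in alpha-beta, BIRC3 and NFKB1 (0.15, adjusted p = 0.0433).

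With the GC trend removed KO5-WT had 2 members called, also with the replicate block added, and GFP-WT had 2 listed genes and 142 genes in all (2 and 133 with the block). Values of uncalled members that changed sign were NFKBIE in alpha-GFP (-0.03 in both fits), RELB in beta-GFP (-0.00033, and -0.0023 with the block), REL in alpha-beta (0.01, and 0.02 with the block) and BIRC3 in KO5-WT (-0.10, and -0.11 with the block).

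Leaving out each library gave 0 to 1 members, 3 to 6 listed and 387 to 497 genes in alpha-beta, against 802 in the full fit. It gave 18 to 21 listed and 2557 to 3157 genes in KO2-WT, the fewest genes without WT replicate 2. It gave 0 to 2 members, 2 to 20 listed and 628 to 2120 genes in GFP-WT, the fewest without WT replicate 2, with 1076 genes and 8 listed without GFP replicate 2. Uncalled values that crossed 0 ranged from -0.04 to 0.16 (NFKBIE, alpha-GFP), -0.02 to 0.08 (TNFAIP3, alpha-GFP), -0.12 to 0.01 (NFKB1, beta-GFP), -0.15 to 0.02 (NFKBIE, beta-GFP), -0.01 to 0.09 (NFKB2, alpha-beta) and -0.05 to 0.04 (REL, alpha-beta). The others were -0.07 to 0.19 (BIRC3, KO5-WT), -0.14 to 0.06 (REL, GFP-WT), -0.10 to 0.00021 (TNFAIP3, GFP-WT) and -0.07 to 0.0041 (NFKB1, overexpression against knockout).

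The replicate numbers were checked for pairing: over 15 pairs of groups the deviations of same-numbered libraries correlated at -0.21 to 0.25, with 3 over 0.1 and 9 below 0, so that not every library correlated best with its own number. With the replicate number as a block all 64 values of the members kept their side of the threshold, and BIRC3, NFKB2 and the others gave 4, 3, 1, 3, 5, 6, 2 and 4 calls in the order above, the same counts as without it.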

Other observations

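BIRC3 lies on chromosome 11 in a stretch where the order in the RefSeq annotation is YAP1, BIRC3, BIRC2, TMEM123 and then the matrix metalloproteinase genes up to MMP13. With alpha YAP1, a Hippo pathway coactivator, stood at -0.05 ± 0.04 relative to GFP and TMEM123 at 0.01 ± 0.03, and neither passed, while BIRC3 fell by 1.43 ± 0.15 and BIRC2 rose by 0.30 ± 0.04. With beta YAP1 fell by 0.10 ± 0.04 (edgeR adjusted p = 0.0123) and TMEM123 stood at 0.04 ± 0.03, which did not pass, while BIRC3 fell by 2.09 ± 0.17 and BIRC2 rose by 0.36 ± 0.04. Farther along, MMP3, which encodes stromelysin, had 3020 counts with alpha and 394 with beta, against 7 with GFP, each summed over 2 libraries. MMP1, a collagenase gene, had 375 counts with alpha and 89 with beta, against 4 with GFP. MMP13 had 0 counts with alpha, beta and GFP.

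IL18, a cytokine gene of the wider list, had 68 and 79 counts in KO5 (2.29 and 2.78 CPM), against 4 and 12 counts in WT (0.109 and 0.212 CPM). It had 0 to 7 counts in the other 8 libraries. The gene passed the filter on low counts through the KO5 libraries, so no test is printed for it. Its calls are still part of the counts of the wider list, as a rise in KO5 and a fall with beta and in KO2. SERPINB2, with 0 CPM with GFP, 0.924 CPM with alpha and 0.459 CPM with beta, is likewise counted there as a rise with alpha and beta.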
